A study of Mus musculus with 18 samples.

Results

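Constant hypoxia was compared with normal atmospheric oxygen in the kidneys of young CD1 mice, an outbred laboratory stock. The arrays were chosen by their titles: 6 arrays of constant hypoxia and 6 of normal air (normoxia), of 18 in all, with the other 6 from intermittent hypoxia. Pups of several litters were divided at postnatal day 2. They were then kept for 1, 2 or 4 weeks in constant hypoxia at 11% oxygen, in alternating oxygen, or in normal air, and each condition and duration had 2 arrays, called A and B. No genotype or other agent distinguished the groups.

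Per the labels, each array, spotted with cDNA probes, received labelled kidney cDNA from 1 male mouse in the Cy5 dye and from 1 female mouse in the Cy3 dye, both kept under the same condition. The deposited value is the log2 ratio of these channels. A gene that responded equally in both animals therefore leaves the ratio where it was, and a difference between conditions is a difference in the balance between the channels. The labels record no dye swap, so sex, dye and the individual animals cannot be told apart, and the sources used here do not give the numerator channel. "Higher" and "lower" below refer to the deposited ratio after each array's median was set to 0. A ratio holds no level, so the level of kidney markers could not be checked.

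Cells that lack oxygen stabilise the hypoxia-inducible factors (HIF), transcription factors that are otherwise marked for destruction by the Vhl protein. Their targets favour glycolysis over mitochondrial respiration, among them Pdk1, a kinase that closes the entry of pyruvate into the tricarboxylic acid cycle. The kidney senses oxygen for the whole body, and its tubules depend on mitochondrial oxidation to reabsorb salt and nutrients.

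The constant hypoxia arrays stood apart before any gene was compared. Of 16128 probes, 81.8% to 88.8% had a value on the constant hypoxia arrays and 41.0% to 67.9% on the normoxia arrays (means 85.8% ± 2.84 and 58.4% ± 10.2, SD, n = 6 each). This difference of 27.4 percentage points reached the smallest two-sided p that an exact permutation within durations allows (p = 0.00926, adjusted over 7 array measures 0.0324). The median deposited ratio lay between -1.17 and -0.15 on the constant hypoxia arrays and between -0.07 and 0.09 on the normoxia arrays. In all, 1015 probes had a value on all 6 constant hypoxia arrays and on no normoxia array, 47 showed the reverse, and 4448 had one on all 12. Neighbouring spots also shared their values: the correlation between each probe and the next in the deposited table was 0.431 to 0.857 under constant hypoxia and 0.26 to 0.644 in normoxia (exact permutation p = 0.0556). Removing the neighbours' median left 12.3% of the variance on the 4-week array A of constant hypoxia and 84.8% on the 2-week array B of normoxia. Each result is therefore given on 2 scales, with the array median at 0 and with the neighbours' median removed. The part of the different share of probes with a value in the results was not tested.

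**Figure D1:**
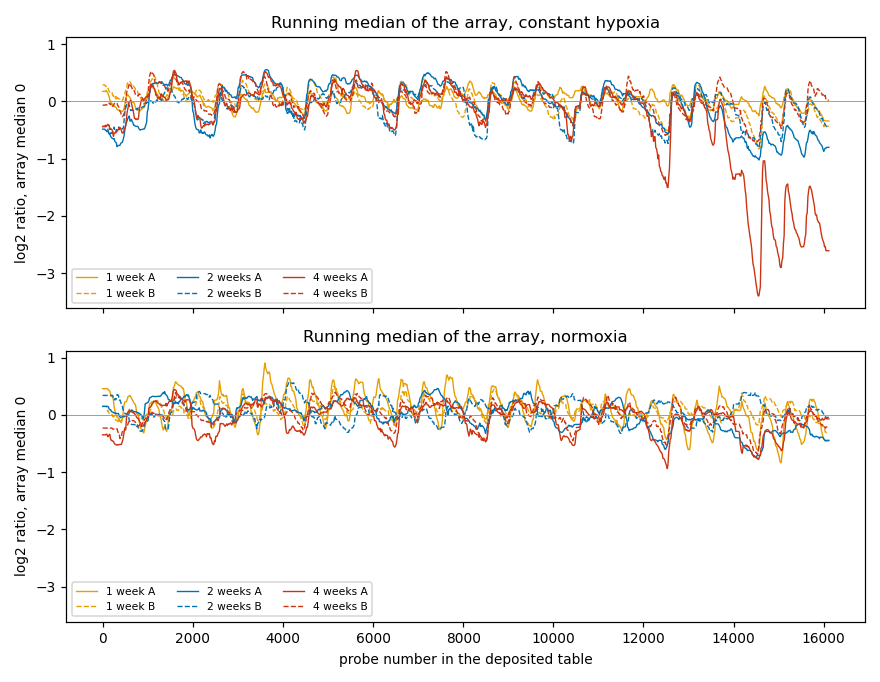
Running median of the log2 ratio (array median at 0, vertical axis) against probe number (horizontal axis), with 1 panel per condition and 1 line per array. The lines wander over long stretches of the table, and the 4-week array A of constant hypoxia falls far below the other lines near the table's end.

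As a check of the labels, genes that differ between the sexes did not keep 1 sign. With neighbours removed Eif2s3y, carried by the Y chromosome, had a ratio of -0.01, 0.63, 1.25, -0.73, 1.12 and 0.48 on the constant hypoxia arrays, and of 0.16, -0.07, -1.67, 0.20, 0.06 and 1.64 on the normoxia arrays (in this order throughout: 1 week A and B, 2 weeks A and B, 4 weeks A and B). A probe for Xist and Tsix, the noncoding RNAs of X inactivation, had -0.74, -0.52, -3.89, 3.08, -3.25 and -2.47 under constant hypoxia and -0.30, 0.07, 2.90, -0.41, 0.03 and -2.77 in normoxia. The values ran opposite to each other where both were large. Eif2s3y was positive and the Xist probe negative on constant hypoxia array A of 2 weeks, both of 4 weeks and normoxia array B of 4 weeks. The reverse held on the 2-week array B of constant hypoxia and the 2-week array A of normoxia (and on 3 arrays of intermittent hypoxia), and both were near 0 on the 1-week array B and the 4-week array A of normoxia. The remaining arrays were both 1-week arrays of constant hypoxia and, in normoxia, the 1-week array A and the 2-week array B. Their Xist values lay between -0.74 and -0.30, so their orientation stayed unsettled, and they were kept unturned in the alternatives below. The labelled orientation of male over female, or its reverse, thus does not hold on every array, and an average over arrays mixes ratios whose direction differs between them.

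Differences between conditions were therefore also computed with the arrays of opposite sign left out, with the arrays near 0 left out as well, and with the sign of every array of opposite sign turned. These choices were made after seeing the data. Over all durations limma called 0 features with the sign turned, on both scales. Leaving arrays out left some groups with a single array. The probe that passed with neighbours removed (below) could not be fitted then. The sign of a difference between conditions is that of the deposited ratio, with no sex attached to it. The 4-week array A of constant hypoxia also carries a female-channel treatment of 2 weeks in its labels against 4 weeks in its title. Nothing in the labels says that animals on A and B came from separate litters, so p-values measure the spread between these arrays.

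Balanced over the 3 durations, no gene passed the test. Of 5751 features (4109 genes and 1642 probes without a single gene symbol) limma called 0 at an adjusted p under 0.05 (0%), and 0 of 6518 single probes (0%). The smallest adjusted p was 0.313. At an unadjusted p under 0.05 there were 442 features (7.69%), 113 higher and 329 lower. With neighbours removed limma called 1 of 5747 (0.0174%), a probe without a gene symbol, and 532 features had an unadjusted p under 0.05 (9.26%), of which 367 were higher and 165 lower. The features with an unadjusted p under 0.05 were selected separately on each scale. The median standard error (SE) of a difference was 0.172 with the array median at 0 and 0.123 with neighbours removed.

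A single array decided the count. Without the 4-week array B of constant hypoxia, limma called 583 features, 572 of them lower, on the array-median scale. The 583 had a median of -2.31 on the remaining 4-week array A and of -0.215 on array B. Their median difference was -0.511 with all arrays and -0.0435 with neighbours removed. Leaving the same array out with neighbours removed gave 0 calls.

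The 12 genes with the smallest p among those higher at each duration differed by 0.38 to 0.57, with unadjusted p from 0.00251 to 0.0126 and a limma adjusted p of 0.64. None passed the test. They hold metabolic enzymes (Ptgr2, Sdhd, Pdhb, Tecr), gene-expression factors (Etv5, Aar2, Wdr43, Gtf3c4, Nars), protein turnover factors (Cops8, Psmd1) and the cell-surface proteoglycan Sdc4. With neighbours removed all 12 kept their sign and 11 had p under 0.05, with the median difference at 0.456 before and 0.403 after. Each gene's difference also kept its sign when any 1 of the 12 arrays was left out, except that Etv5 and Psmd1 could not be fitted without the 2-week array A of normoxia, nor Gtf3c4 without the 4-week array A of normoxia. The genes were picked from these same arrays by sign and p. Signs kept with neighbours removed or with arrays left out largely follow from that choice and add no separate support. Without the 2 arrays of opposite sex-gene sign the 10 of 12 genes that could be fitted kept their sign (median 0.483, and 0.451 with neighbours removed). Turning the sign of such arrays left 11 of 12 positive, at a median of 0.252, and 0.297 with neighbours removed, with Etv5 at -0.38 on both scales.

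Ptgr2, an enzyme that breaks down prostaglandins, had ratios of 0.36, 0.64, 0.31, -0.20, 0.75 and 0.68 under constant hypoxia, and of 0.33, 0.33, -0.24, -0.15, -0.26 and -0.36 in normoxia. The 4-week arrays of constant hypoxia were the highest and the 4-week arrays of normoxia the lowest, and the groups overlapped at 2 weeks. The difference was 0.48 ± 0.13 (SE; adjusted p = 0.64), made up of 0.17 at 1 week, 0.25 at 2 weeks and 1.03 at 4 weeks, and it was 0.45 ± 0.11 with neighbours removed (adjusted p = 0.281).

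Sdhd, a membrane anchor of succinate dehydrogenase that links the tricarboxylic acid cycle to the respiratory chain, had ratios of -0.10, 0.42, 0.37, 0.01, 0.51 and 0.30 under constant hypoxia, and of -0.11, 0.05, -0.59, -1.13, 0.09 and -0.14 in normoxia. The normoxia arrays of 2 weeks were the lowest, and the groups overlapped at 1 week. The difference was 0.55 ± 0.16 and 0.59 ± 0.15 with neighbours removed (limma adjusted p = 0.281). Pdhb, the beta subunit of the pyruvate dehydrogenase that Pdk1 inhibits, had 0.11, 0.25, -0.26, -0.12, 0.66 and 0.18 under constant hypoxia against -0.48, -0.38, -0.20, -0.36, 0.03 and -0.30 in normoxia. Its groups were apart at 1 week and at 4 weeks and met at 2 weeks, with a difference of 0.42 ± 0.14, or 0.27 ± 0.13 with neighbours removed (adjusted p = 0.55).

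The other members were carried mainly by the 2-week arrays. Of the 12 genes, 9 had their largest difference at 2 weeks, and in 9 the lowest of the 12 values was on a 2-week normoxia array. Etv5, a transcription factor with a role in kidney development, differed by 0.57 ± 0.16 over all durations and by 1.28 at 2 weeks, where normoxia rests on array A alone at -1.55. Wdr43, a nucleolar factor of ribosome assembly, differed by 0.44 ± 0.13 (0.43 ± 0.11 with neighbours removed), and Gtf3c4, a subunit of the general factor TFIIIC, by 0.52 ± 0.17 (0.53 ± 0.14). Aar2, a splicing factor that assembles the U5 particle, had 0.41 ± 0.12, and 0.25 ± 0.10 with neighbours removed. Tecr, which completes the elongation of very long fatty acids, had 0.45 ± 0.15 and then 0.36 ± 0.12. Cops8 (signalosome), Psmd1 (proteasome cap), Sdc4 and Nars (asparaginyl-tRNA synthetase) lay between 0.38 and 0.53, and between 0.29 and 0.46 with neighbours removed.

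The 12 genes with the smallest p among those lower at each duration differed by -0.50 to -1.27, and none passed the test (limma adjusted p 0.313 to 0.64). Unlike the higher genes, they lay where the 4-week array A of constant hypoxia was low as a whole: the neighbours' median there was -2.40 to -0.21 (median -1.30, below -0.5 for 10 of 12), against -0.09 to 0.41 for the higher genes. With neighbours removed all 12 kept their sign and 8 had p under 0.05, while the median difference went from -0.647 to -0.301. The lowest of the 12 values was on that array for 9 genes. Without the 2 arrays of opposite sex-gene sign all 12 kept their sign (median -0.767, and -0.291 with neighbours removed). These genes too were picked by sign and p on the same arrays, so the kept signs largely follow from that choice. Turning the sign left all 12 negative at a median of -0.438, and 11 with neighbours removed at -0.206, with Jak2 at 0.04.

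Ifitm3, an interferon-induced membrane protein that blocks virus entry, had ratios of -0.35, -0.76, -0.85, -0.53 and -3.23 under constant hypoxia, with no value on the 4-week array B, and of -0.52, 0.30, -0.11, -0.39, -0.09 and -0.53 in normoxia. The 4-week array A stood below all others, and the 1-week values overlapped with normoxia. The difference of -1.27 ± 0.23 became -0.39 ± 0.20 with neighbours removed (adjusted p = 0.584). Micos13, a subunit of the complex that shapes the cristae of the inner mitochondrial membrane, had -0.29, -0.27, -1.23, -0.70, -2.55 and -1.03 against -0.64, 0.11, -0.07, -0.13, -0.09 and 0.10. All arrays of constant hypoxia except the 1-week ones lay below every normoxia array. With neighbours removed its ratios were -0.28, -0.09, -0.37, -0.41, -0.15 and -0.75 under constant hypoxia and -0.12, 0.03, 0.05, -0.03, 0.11 and 0.23 in normoxia. On that scale only the 1-week arrays overlapped, through the B array of constant hypoxia and the A array of normoxia, and the difference was -0.39 ± 0.11 (adjusted p = 0.319), against -0.89 ± 0.22 with the array median at 0.

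Ube2g1, a ubiquitin-conjugating enzyme, was the member whose groups did not overlap: -0.35, -0.37, -0.30, -0.66, -0.51 and -0.46 under constant hypoxia, and 0.08, 0.03, 0.16, 0.83, -0.27 and -0.25 in normoxia. The 4-week arrays of normoxia came closest to the constant hypoxia range. The difference of -0.53 ± 0.14 became -0.25 ± 0.13 with neighbours removed, where the groups overlapped. Prdx4, a peroxiredoxin of the endoplasmic reticulum, was measured by 2 probes that differed by -0.36 and -0.90, and by -0.38 and -0.29 with neighbours removed, so that the probes lay closer together on that scale.

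Among the remaining members, Prkag1, a regulatory subunit of the energy sensor AMPK, differed by -0.87 ± 0.23 and by -0.31 ± 0.10 with neighbours removed. Mrpl13, a protein of the mitochondrial ribosome, had -0.72 ± 0.20 and then -0.29 ± 0.11. Nol7, a nucleolar protein, had -0.66 ± 0.15 and then -0.23 ± 0.10. Ilf2, an RNA-binding protein, had -0.60 ± 0.18 and then -0.12 ± 0.13, Pidd1, a death-domain protein downstream of p53, -0.82 and then -0.29, and Jak2, the kinase of the erythropoietin receptor, -0.50 and then -0.19. AU044698 (-0.52 and -0.34) and Tlcd4 (-0.59 and -0.36) were the members whose neighbours on the 4-week array A lay above -0.5.

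**Figure D2:**
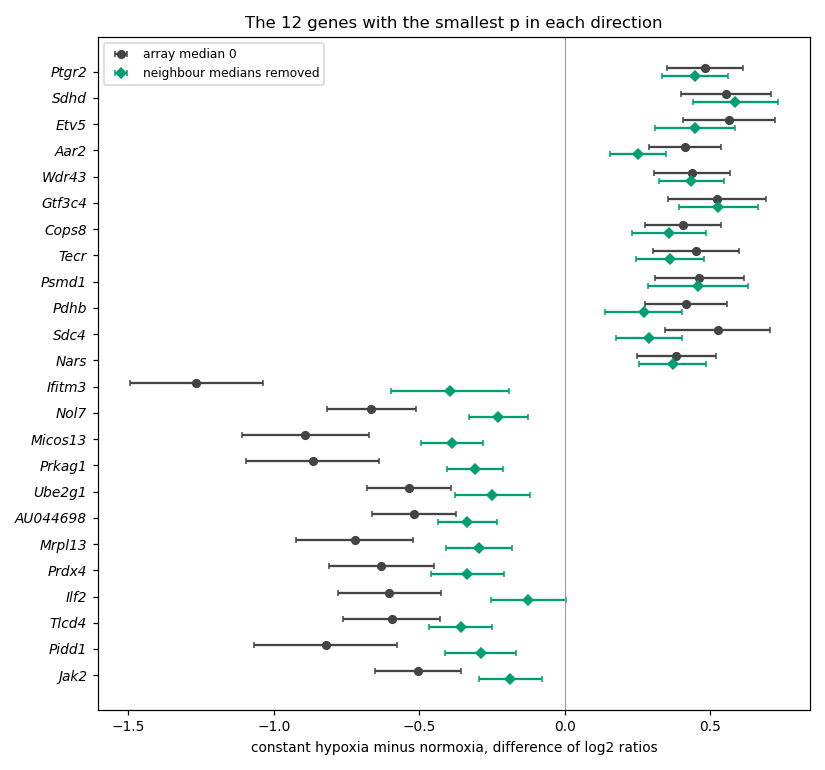
Difference in log2 ratio, constant hypoxia minus normoxia over 1, 2 and 4 weeks (horizontal axis), for the 12 higher and 12 lower genes, with bars of 1 SE, on both scales. The higher genes go from a median of 0.456 to 0.403 when the neighbours' median is removed, and the lower genes move toward 0, to a median of -0.301.

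**Figure D3:**
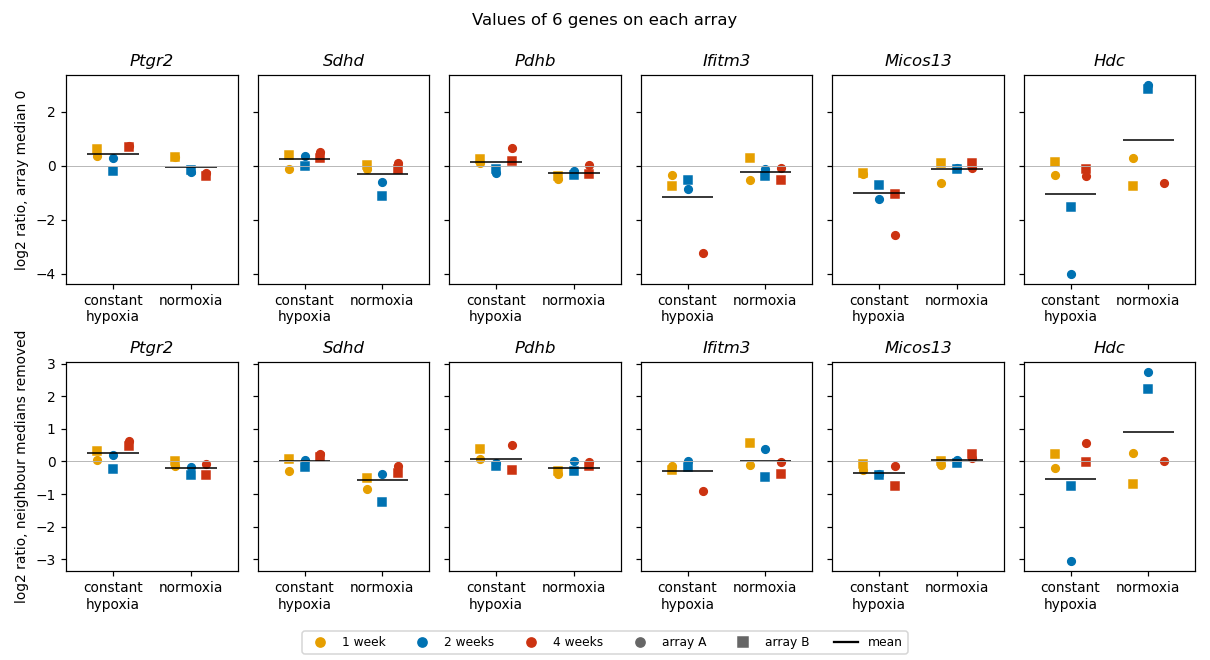
Log2 ratio on each array (points) with the mean of the arrays that have a value (bar) for Ptgr2, Sdhd, Pdhb, Ifitm3, Micos13 and Hdc, by condition and duration, on both scales. The 4-week array A of constant hypoxia is low for Ifitm3 (-3.23) and Micos13 (-2.55), and the Hdc difference lies at 2 weeks.

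Taken duration by duration, 1 gene passed the test at 2 weeks and 2 at 4 weeks. At 1 week limma called 0 of 5751 (0%), at 2 weeks 1 (0.0174%) and at 4 weeks 2 (0.0348%). The change of the difference from 1 to 4 weeks was called for 0 features (0%), so no gene's difference was shown to depend on duration by that test.

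Hdc, the enzyme that makes histamine, fell in ratio at 2 weeks. Its values were -4.01 and -1.52 on the 2-week arrays of constant hypoxia and 3.01 and 2.83 on those of normoxia. On the other arrays of these conditions it lay between -0.74 and 0.28, with no value on the 4-week array B of normoxia. The groups at 2 weeks were far apart, and both left the range of the other durations, in opposite directions. The difference at 2 weeks was -5.69 ± 0.77 (limma adjusted p = 0.0383) and -4.38 ± 0.61 with neighbours removed (limma adjusted p = 0.0264). The call was lost in a fit of the 12 arrays alone (limma adjusted p = 0.0629), with arrays A and B as a replicate block (0.0672), and without any 1 array of normoxia or constant hypoxia at 1 week, normoxia at 2 weeks or the 2-week array A of constant hypoxia (0.0505 to 0.626). At 2 weeks each condition had 1 array of opposite sex-gene sign. Without these the limma adjusted p was 0.128, and 0.00958 with neighbours removed. With their sign turned the difference was -1.16, and -0.90 with neighbours removed, and did not pass on either scale (limma adjusted p = 1).

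Aldh3a2, a fatty aldehyde dehydrogenase, and Ifitm3 passed at 4 weeks on 1 array of constant hypoxia each, since neither had a value on array B. Aldh3a2 was -2.01 on array A against 0.10 and 0.35 in normoxia, a difference of -2.23 ± 0.30 (limma adjusted p = 0.0212) that became 0.09 with neighbours removed. Ifitm3 differed by -2.91 ± 0.45 at 4 weeks (limma adjusted p = 0.0477) and by -0.72 with neighbours removed. Neither passed on that scale, in a fit of the 12 arrays alone (limma adjusted p = 0.0699 for both), or without either 1-week array of constant hypoxia or either 4-week array of normoxia. Ifitm3 also did not pass without any 1 of the 2-week arrays (limma adjusted p = 0.0555 and 0.0762), or with the replicate block (0.117). With the sign turned on arrays of opposite sex-gene sign, both had a limma adjusted p of 1. Without these arrays Aldh3a2 passed (0.0305) and Ifitm3 did not (0.122).

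With neighbours removed, limma called 7 of 5748 features at 2 weeks (0.122%). Besides Hdc these were Fcgbp, an IgG-Fc-binding mucus protein (1.96 ± 0.35), the GTPase Irgq (1.57 ± 0.27), Lrrc9 (0.92 ± 0.17) and 3 probes without a gene symbol. Fcgbp was at -1.83 and -2.31 on the 2-week normoxia arrays and at -0.09 and -0.13 on those of constant hypoxia. Irgq was at -1.60 and -1.87 against -0.08 and -0.25. In both genes the constant hypoxia arrays were near 0 and the 2-week normoxia arrays were low. No feature passed at 2 weeks on this scale when the arrays of opposite sex-gene sign were turned. With those arrays left out, each 2-week group held a single array, and the set of features that passed was a different one.

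Few features separated the conditions on all arrays. Of 3888 features with a value on all 12, 1 lay above normoxia throughout (0.0257%) and 2 lay below (0.0514%). Cops7a, a signalosome subunit like Cops8, had -0.12 to 0.12 under constant hypoxia and -0.34 to -0.14 in normoxia, a difference of 0.24 ± 0.11. It averages 2 probes that differed by 0.33 and 0.15 over all durations, and by 0.53 and -0.07 at 2 weeks. Galt, which converts galactose for glycolysis, had -0.28 to -0.07 against -0.06 to 0.17, and Ube2g1 was the other lower one. With neighbours removed 11 of 3871 lay above (0.284%) and 1 below (0.0258%).

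The 11 held 7 named genes. Slc29a1, a nucleoside transporter that takes up adenosine, had -0.12, -0.14, -0.04, -0.17, -0.15 and -0.07 under constant hypoxia and -0.68, -0.31, -0.75, -0.24 and -0.47 on 5 normoxia arrays, with the 2-week array B lower still. The constant hypoxia values lay close together just under 0 and all normoxia values were lower, a difference of 0.49 ± 0.11 (limma adjusted p = 0.224). Chmp5, a component of the endosomal sorting machinery, had 0.01 to 0.42 against -0.64 to -0.06, and the protease Sppl2a had -0.06 to 0.24 against -0.52 to -0.10. Nasp, a histone chaperone, had 0.02 to 0.13 with every normoxia value under 0.01. It averages 2 probes that differed by 0.05 and 0.38. With the array median at 0 these probes went opposite ways at 2 weeks (0.28 and -0.33). The others were Cdc14b, Sfr1 and 4930402H24Rik, and the feature below was a probe without a symbol. The 2 probes of Cdc14b differed by 0.08 and 0.28, but by 0.05 and -0.26 with the array median at 0.

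On the scale with neighbours removed the smallest p among genes was for Gmfb, the glia maturation factor beta (0.72 ± 0.13, limma adjusted p = 0.153), followed among higher genes by Slc29a1, Chmp5, Atp6v1a, a proton pump subunit (0.52 ± 0.12), Sppl2a and Gtf2h3 of the general factor TFIIH (0.46 ± 0.11). Gmfb had -0.23 to 0.10 under constant hypoxia and -0.35, -0.97, -1.58, -0.12 and -0.18 in normoxia, which overlapped at 4 weeks. The lower genes began with Clu, the secreted chaperone clusterin (-0.53 ± 0.12, limma adjusted p = 0.25). Clu had -0.07, -0.15, -0.30, 0.20, -0.63 and -0.54 under constant hypoxia, and 0.22, 0.36, 0.87, -0.21 and -0.40 in normoxia, where the 2-week array A had no value. The groups were apart at 1, 2 and 4 weeks taken singly, but the 4-week normoxia arrays lay within the constant hypoxia range. Next came the noncoding host gene Snhg8 (-0.41 ± 0.11), Micos13, the ribosomal protein gene Rpl22 (-0.35 ± 0.10), Med15 of the Mediator complex (-0.45 ± 0.13) and Slirp, which protects mitochondrial messenger RNA (-0.35 ± 0.10). Of the 12 higher and 12 lower genes chosen by this scale, 4 and 4 were also in the earlier lists.

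The probe that passed over all durations with neighbours removed, number 14261, had -0.59, -0.48, -0.28, -0.36, -0.32 and -0.42 under constant hypoxia and 0.12, -0.08, 1.01 and 0.21 in normoxia, with no value on 2 normoxia arrays. All constant hypoxia values lay below all normoxia values. The difference was -0.82 ± 0.11 (limma adjusted p = 0.0217). The call was lost without any 1 of the constant hypoxia arrays and in a fit of the 12 arrays alone. The difference could not be fitted without the 2-week or the 4-week array A of normoxia, the only normoxia value of its duration in each case. With the sign turned on arrays of opposite sex-gene sign it was -0.03. It also passed against intermittent hypoxia, where limma called 2 of 5751 features (0.0348%): this probe at -1.58 ± 0.21 (limma adjusted p = 0.045, and 0.00143 with neighbours removed) and Arrb2, a beta-arrestin that uncouples receptors (-1.09 ± 0.16, limma adjusted p = 0.045). Arrb2 was at -0.42 to 0.22 under constant hypoxia and at 0.10 to 0.48 on 4 intermittent arrays, with a single value of 2.33 on the 2-week array B. It did not pass with neighbours removed (-0.63, limma adjusted p = 0.164) or after scaling (0.258). With a running median removed it passed, among 3 features that were this gene, the probe and Tubb6. With the array median at 0 both calls against intermittent hypoxia were lost with the replicate block (limma adjusted p = 0.0699 for the probe and 0.11 for Arrb2). They were also lost without any 1 normoxia array or any 1 of the 1-week and 2-week arrays of constant hypoxia (0.0728 to 0.245), and with the sign turned (0.627 for both, the probe at -1.18 and Arrb2 at 0.58, in the other direction).

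Gene groups were read against all features, of which 41.7% had a positive difference (median -0.0434) and 56.5% with neighbours removed (median 0.0256). No member of any list passed the test over all durations. The genes of the tricarboxylic acid cycle leaned to the positive side: 14 of 20 measured (of 26 listed) were positive with a median of 0.147, and 17 of 20 with a median of 0.185 with neighbours removed. Sdhd and Pdhb had p under 0.05 on the first scale. Idh3b, a subunit of the NAD-dependent isocitrate dehydrogenase, had 0.41 ± 0.21 and then 0.44 ± 0.17 (adjusted p = 0.439). Sdha, the catalytic partner of Sdhd, had -0.53 ± 0.25 with -2.15 on the 4-week array A, and -0.03 ± 0.10 with neighbours removed. Without the 2-week array B of normoxia, which had the fewest probes with a value, the median of the list was 0.0271, and 0.13 with neighbours removed. It was 0.189 and 0.317 without the arrays of opposite sex-gene sign, and 0.198 and 0.222 with their sign turned.

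Of 7 measured glycolysis genes (of 21), 6 were positive with a median of 0.21, and 5 with a median of 0.229 with neighbours removed. Pgk1, which makes ATP in glycolysis and is a HIF target, had -0.02, -0.04, 0.26, -0.14, 0.29 and 0.50 against -0.21, -0.66, -0.60, -0.73, 0.46 and 0.74. The constant hypoxia arrays were above normoxia at 1 and 2 weeks, and at 4 weeks a normoxia array was the highest of all. Its difference was 0.31 ± 0.13 and 0.29 ± 0.10 with neighbours removed (adjusted p = 0.417). Ldha and Ldhb, the subunits of lactate dehydrogenase, had 0.22 ± 0.20 and 0.27 ± 0.21. Without the 2-week array B of normoxia the median of this list was 0.0738, and 0.0401 with neighbours removed.

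HIF targets had a median near 0: 8 of 12 measured (of 37) were positive with a median of 0.0446, and 9 with a median of 0.0283 with neighbours removed. These counts and medians include Vhl, which the list holds although it acts on HIF and is a regulator. With neighbours removed, the median went from -0.0124 without the 4-week array B of normoxia to 0.0806 without the 4-week array A, and 4 to 10 members were positive as single arrays were left out. With the array median at 0 it was 0.000993 to 0.0904. Pdk1 had 0.40 ± 0.19, and 0.40 ± 0.15 with neighbours removed (adjusted p = 0.429), with its lowest values on the 2-week normoxia arrays (-0.58 and -0.80). Ndrg1, a stress-response gene, had 0.30 ± 0.20 and then 0.35 ± 0.15 (adjusted p = 0.496). Vhl had -0.71 ± 0.34 and the transferrin receptor Tfrc -0.45 ± 0.27, with -3.29 and -2.21 on the 4-week array A of constant hypoxia, and -0.15 ± 0.11 and -0.02 ± 0.12 with neighbours removed.

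The respiratory chain and ATP synthase had 14 of 40 measured members (of 87) positive with a median of -0.0927, and 20 of 40 with a median of 0.000142 with neighbours removed. Ndufb11, a subunit of complex I, was the member with the smallest p on both scales, at -0.82 ± 0.27 and -0.35 ± 0.11 (adjusted p = 0.365). With neighbours removed it had -0.17, -0.02, -0.25, -0.16, -0.31 and -0.57 under constant hypoxia and -0.10, 0.17, 0.20, 0.20, 0.01 and 0.12 in normoxia, so that only the 1-week arrays overlapped. Ndufc2 (-0.62, then -0.12) and Uqcrb of complex III (-0.38, then -0.16) moved toward 0, and Cox8a of complex IV had 0.36 and then 0.38 ± 0.15 (adjusted p = 0.486). Fatty acid oxidation genes had 10 of 18 positive (median 0.0136) and 14 with neighbours removed (median 0.104), with Aldh3a2 at -0.82 and then 0.09, Eci1, which processes unsaturated fatty acids (0.28 ± 0.13, then 0.31 ± 0.12), and the lipid carrier Scp2 (0.47 ± 0.21, then 0.36 ± 0.16). The list's median was -0.0651 without the 1-week array B of constant hypoxia and 0.0866 without array A, and 0.0205 and 0.165 with neighbours removed.

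**Figure D4:**
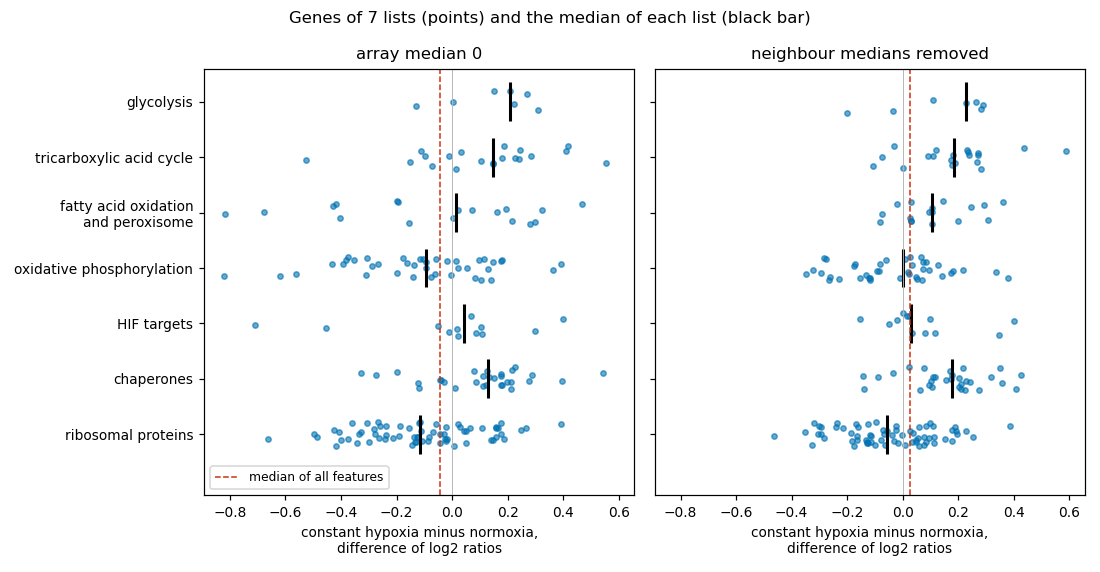
Difference in log2 ratio, constant hypoxia minus normoxia (horizontal axis), for each measured gene of 7 lists (points) with the list's median (bar) and the median of all features (dashed line), on both scales. The tricarboxylic acid cycle, glycolysis and chaperone medians lie to the right of the dashed line and that of ribosomal proteins to its left in both panels.

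Among chaperones, which fold proteins in cytosol, mitochondria and endoplasmic reticulum, 22 of 30 measured (of 39) were positive (median 0.13), and 26 with neighbours removed (median 0.176). The median was between 0.0926 and 0.195, or between 0.124 and 0.219 with neighbours removed, when any 1 array was left out. With the sign turned on arrays of opposite sex-gene sign it was 0.0899, and 0.183 with neighbours removed. Hsp90aa1, the inducible cytosolic Hsp90, had 0.40 ± 0.20 and then 0.42 ± 0.15 (adjusted p = 0.409). Hspd1, the mitochondrial chaperonin, had 0.11 ± 0.14 and then 0.36 ± 0.10 (adjusted p = 0.332), and Hspa5, the chaperone of the endoplasmic reticulum, 0.21 ± 0.13 and then 0.28 ± 0.11 (adjusted p = 0.438). Proteasome and ubiquitin genes had 19 of 43 positive (median -0.0218) and 28 with neighbours removed (median 0.073), with Psmd1 and Ube2g1 at the ends. Antioxidant genes were divided, 11 of 21 on either scale, with Txn2, the mitochondrial thioredoxin, at 0.32 ± 0.14 and then 0.50 ± 0.14, and Prdx4 on the lower side.

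Ribosomal protein genes leaned the other way: 20 of 67 measured were positive with a median of -0.116, and 27 of 67 with a median of -0.0567 with neighbours removed. The list's median stayed below 0 when any 1 array was left out (-0.156 to -0.0478, and -0.0998 to -0.0127). That of all features was then -0.0499 to -0.0243, and 0.0183 to 0.0349 with neighbours removed. With the sign turned on arrays of opposite sex-gene sign the list's median was -0.0242 and -0.0169, against -0.0197 and 0.0175 for all features. Without these arrays it was -0.0916 and -0.0735, against -0.0431 and 0.0245. Without these and the arrays near 0 it was -0.0475 and -0.0107, against -0.0464 and 0.032. The lean on the array-median scale was thus small in the first and last of these settings. Rpl22 had -0.43 ± 0.13 and then -0.35 ± 0.10, with no value on the 4-week array A of constant hypoxia, and Rps27l -0.40 ± 0.16 and then -0.29 ± 0.12. Rps25 had -0.42 ± 0.17 and then -0.32 ± 0.12. Rplp0, the stalk protein of the large subunit, went against the list at 0.39 ± 0.24 and then 0.39 ± 0.14 (adjusted p = 0.426), with -1.15 on the 2-week array B of normoxia. Ribosomal protein genes have many near-identical pseudogene copies, whose transcripts a cDNA probe may also bind.

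The splicing list lay on different sides of 0 on the 2 scales, with 14 of 33 positive (median -0.0505) and then 24 (median 0.0977). Sf3b1, a core subunit of the U2 particle, had -0.04 ± 0.34 and then 0.57 ± 0.15 (adjusted p = 0.319), with the lowest value, -1.79, on the 2-week array B of normoxia. The RNA-binding protein Hnrnph1 (-0.93, then -0.33) and the core protein Snrpb (-0.67, then -0.13) were at -2.56 and -2.71 on the 4-week array A of constant hypoxia. Ribosome biogenesis had 12 of 26 positive and then 16, with Ncl, the abundant nucleolar protein nucleolin, at 0.48 ± 0.18 and then 0.46 ± 0.15 (adjusted p = 0.362), close to Wdr43.

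Among lists of other genes and cell types, interferon response genes had 2 of 6 positive and then 1, extracellular matrix genes 8 of 19 and then 15 (medians -0.0147 and 0.0487), and cell cycle genes 8 of 21 and then 14. Of kidney transport and tubule genes, 4 of 6 were positive on both scales, and of 3 renin-angiotensin genes 0 and then 1. Endothelial markers had 3 of 6 positive on both scales, immune markers 4 of 8 and then 5, and podocyte markers 3 of 3 and then 2.

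Blood markers were lower on the first scale and near 0 on the second. Of 5 erythroid genes measured, 0 were positive (median -0.454), and 1 with neighbours removed (median -0.0689). The median was -0.164 without the 4-week array A of constant hypoxia and -0.785 without the 4-week array B, and -0.136 to -0.0245 with neighbours removed and single arrays left out. The mean of the list ranged from -1.89 to 0.117 under constant hypoxia and from -0.448 to 0.285 in normoxia. The globin gene Hbb-b1 was at -4.10 on the 4-week array A of constant hypoxia, and its difference was -0.91 ± 0.41 and then -0.25 ± 0.24. The embryonic globin Hbb-y had -0.65 ± 0.25 and then -0.24 ± 0.11 (adjusted p = 0.509). Blood content of the samples, and its part in the results above, was not tested. A ratio from whole kidney cannot tell a difference between the channels in cells of a type from one in RNA per cell.

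A set of genes took large ratios on 3 of the 4-week arrays, in both conditions. These genes were picked after their values were seen and are given as a description. With neighbours removed Odc1, which starts polyamine synthesis, was at 1.61 and 1.49 under constant hypoxia and at -0.26 and 1.63 in normoxia. The carboxylesterase Ces1f was at 2.12 and 0.89 against -0.01 and 1.97, Selenop, the selenium carrier, at 1.96 and 0.90 against 0.12 and 1.70, and the anion carrier Slco3a1 at 1.89 and 1.58 against -0.12 and 1.42. The glutathione transferase Mgst1 took negative values at the same places, -2.34 and -1.71 against -0.10 and -0.93, and so did the thioesterase Acot7, -2.40 and -1.40 against -0.16 and -1.06. Normoxia array A of 4 weeks stayed near 0 for all of these, so each gene's difference between conditions at 4 weeks rests on a pair of normoxia arrays that differ. The sex-linked genes followed the same arrays: at 4 weeks Eif2s3y was at 1.12 and 0.48 against 0.06 and 1.64, and the Xist probe at -3.25 and -2.47 against 0.03 and -2.77. Their part in these values was not tested.

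Spread was the other quantity compared, first over the features within each array and then between arrays. Over the features of an array, the median absolute deviation of the ratio (MAD) was 0.354 ± 0.0982 (SD, n = 6) under constant hypoxia and 0.354 ± 0.066 in normoxia with the array median at 0 (exact permutation p = 1). With neighbours removed it was 0.174 ± 0.0386 and 0.254 ± 0.0688, a difference of -0.0798 (exact two-sided permutation within durations, p = 0.037, adjusted over 7 measures 0.0863). The constant hypoxia arrays were thus as wide as the normoxia arrays on the first scale and narrower on the second, at an unadjusted p under 0.05 only. That p was 0.0556 to 0.0926 (exact permutation) without any 1 of the 1-week and 2-week arrays of constant hypoxia, the 1-week array A or the 4-week array B of normoxia.

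Gene by gene, the spread was the standard deviation between arrays A and B of the same duration, pooled over durations. Its median was 0.219 under constant hypoxia and 0.275 in normoxia, with a median ratio of 0.849, and it was lower under constant hypoxia for 58.5% of 3888 features. At least 2-fold lower were 958 and at least 2-fold higher 641. With the arrays scaled to a common MAD the ratio was 0.959, with 52.1% of features lower, 761 at least 2-fold lower and 646 at least 2-fold higher. With neighbours removed the medians were 0.14 and 0.206, the ratio 0.678, and 71.5% of 3871 features were lower. At least 2-fold lower were 1266 features and at least 2-fold higher 266 on that scale. For intermittent hypoxia the ratio to normoxia was 0.948, and 0.975 with neighbours removed. By duration, the difference was largest at 2 weeks (medians 0.146 and 0.267, and 0.079 and 0.17 with neighbours removed, with 71.7% of features lower). In each condition 1 of the 2-week arrays was of opposite sex-gene sign, so the SD there compares ratios whose direction differs. The part of this in the spread between arrays was not tested. At 4 weeks constant hypoxia had the larger median on the first scale (0.205 and 0.185) and the smaller on the second (0.133 and 0.167), so the order there depended on the neighbours.

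No single gene's spread passed the test: limma called 0 of 3888 (0%), and 0 of 3871 with neighbours removed (0%). At an unadjusted p under 0.05, 96 features had a lower spread under constant hypoxia (2.47%) and 55 a higher one (1.41%). With neighbours removed they were 239 (6.17%) and 18 (0.465%). The smallest adjusted p were 0.953 and 0.234.

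The 5 genes with the smallest p for a higher spread each had a smaller difference in spread with neighbours removed. Hcfc1, a cofactor that binds chromatin, had an SD of 0.581 under constant hypoxia and 0.016 in normoxia, and of 0.104 and 0.069 with neighbours removed. It averages 2 probes whose differences between conditions were -0.08 and -0.44, and 0.01 and -0.14 with neighbours removed. Gpbp1 and Megf9 had 0.929 and 1.12 under constant hypoxia, and lay below their normoxia value with neighbours removed (0.0694 against 0.21, and 0.0562 against 0.124). Dpcd, linked to the formation of cilia, kept the larger spread on both scales, 0.753 against 0.0878 and 0.405 against 0.0712. Btg4 had 0.664 against 0.147, and 0.486 against 0.198.

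Genes with a lower spread kept the order on both scales. The general transcription factor Gtf2b had an SD of 0.0327 against 0.515, and 0.104 against 0.365 with neighbours removed. The potassium channel Kcnk1 had 0.104 against 0.856, and then 0.149 against 0.788. Serp1, which steadies membrane proteins in the endoplasmic reticulum, had 0.017 against 0.394, and then 0.108 against 0.417, and Igf2bp1 and Snu13 were also lower on both scales. Igf2bp1 averages 2 probes whose differences between conditions went opposite ways (-0.10 and 0.13, and -0.36 and 0.37 at 2 weeks). Its SD is that of the average. With neighbours removed the smallest p was for Kcmf1, a ubiquitin ligase (0.0326 against 0.555, limma adjusted p = 0.234), and Atp5d, a subunit of ATP synthase (0.0539 against 0.582, limma adjusted p = 0.234). On the same scale Pcna, the sliding clamp of replication, and Cdkn1c, a cell cycle inhibitor, were among those with a higher spread (0.493 against 0.0801, and 0.505 against 0.369).

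**Figure D5:**
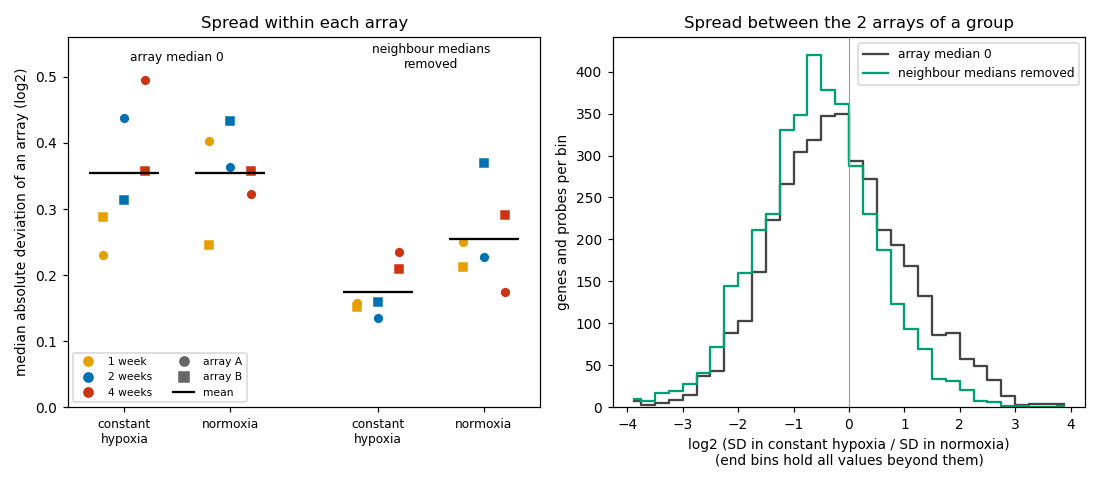
Median absolute deviation of the log2 ratio on each array by condition (points, on both scales), and a histogram over features of the log2 ratio of the SD between arrays, constant hypoxia over normoxia. With neighbours removed the histogram lies mostly below 0, with 71.5% of features lower under constant hypoxia.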

How the data were processed

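The deposited value is a log2 ratio for each probe on each array. The sources used here do not give the authors' filtering, background correction, genome build or numerator channel. Ratios carry no depth, so the number of arrays (2 per group) limits the precision. The platform annotation names 1 gene for 9604 of 16128 probes, several for 213 and none for 6311. Probes with a value on at least 15 of 18 arrays and in every group were kept (6518, or 40.4%), each array's median over them was subtracted, and probes of a symbol were averaged, giving 5751 features.

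The 9 group means were fitted on all 18 arrays with limma 3.58.1 in R 4.3.3 (lmFit, eBayes), with Benjamini-Hochberg adjustment over all features and a threshold of 0.05. A contrast averages 1, 2 and 4 weeks with equal weight. Spread was tested with limma on log2 of the difference between arrays A and B plus 0.1, and single array measures by exact permutation within durations (216 assignments). Procedures were tested on data with known answers.

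The array layout was inferred from the values: 32 blocks of 21 rows and 24 columns. Removal of the neighbours' median (spots within 3 rows and columns of the block, at least 5 with a value) was chosen after seeing the data, as was its use in every comparison. Whether the letters A and B pair arrays across groups stayed unsettled. Of 15 correlations of same-letter deviations, 6 were over 0.1 (range -0.37 to 0.44). As the sign of the ratio differs between arrays, these correlations cannot decide it. The main fit assumed no pairing.

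Genes were named by rule: the 12 smallest p in each direction with 1 sign at all durations and values on at least 5 of 6 arrays per condition, those past a threshold, the 5 smallest p for spread in each direction, and up to 3 per list, on either scale. Others were chosen after their values were seen. Members and lists were chosen with earlier results of these data known.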

Additional observations from a re-analysis of the deposited data

Results flagged for a closer look

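In groups of 6 arrays of 1 condition, a value was singled out when its gap to the nearest other, over the group's range, was above Dixon's 95% critical value. This held in 3 of 61 groups tested, where chance gives about 1 in 20. Pidd1 was at -2.57 on the 4-week array A of constant hypoxia, far below the other 5 arrays of that condition. The probe without a gene symbol numbered 14261 was at -2.29 on the same array, also far below the rest. With neighbours removed these values were -0.17 and -0.32, inside the range of the others for both. Micos13 was at -0.644 on the 1-week array A of normoxia, below the other normoxia arrays, and at -0.12 there with neighbours removed.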

How the results depend on the processing

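The count of 0 genes over all durations became 5570 with the values as deposited and not centred, 2 after quantile normalization, and 1 without a filter beyond a value in every group, with a running median removed, with neighbours removed, or without the 2 arrays of conflicting labels. Leaving out single arrays gave 0 to 583. A group left with 1 array was assumed to vary like the others. With the letter as a replicate block the count was 0. Of 5 named results that passed, the block left Aldh3a2 at 4 weeks (limma adjusted p = 0.0287) and lost Hdc, Ifitm3, Arrb2 and probe 14261 (0.0672 to 0.117). With neighbours removed, the count of 1 became 0 in the fit of 12 arrays and with the sign turned on arrays of opposite sex-gene sign. The probe of that call could not be fitted without these arrays, or without these and the arrays near 0. The count also changed as single arrays were left out. Per probe, the count of 0 became 6251 as deposited and 1 with a running or neighbours' median removed. At 1 week it became 4466 as deposited. The count of 1 at 2 weeks became 8 with a running median and 7 with neighbours removed, and 0 to 10 with single arrays left out (10 without normoxia array A of 2 weeks). The count of 2 at 4 weeks became 5247 as deposited, 0 after scaling, with a running median or with neighbours removed, and 0 to 663 with single arrays left out (663 without constant hypoxia array B of 4 weeks). The change from 1 to 4 weeks had 1 call as deposited. Against intermittent hypoxia there were 5386 calls as deposited, 3 with a running median removed, 1 after scaling and 1 with neighbours removed. Arrays did not overlap for 12 features with neighbours removed, 13 with a running median removed and 6 after scaling, against 3. The difference in MAD of -0.000129 became -0.0798 with neighbours removed, and -0.0286 to 0.0245 with single arrays left out. With neighbours removed it was -0.0958 to -0.0566 with single arrays left out, and 6 of these had p at or over 0.05. As deposited, the 12 higher genes turned negative: Ptgr2 -0.28, Sdhd -0.21, Etv5 -0.21, Aar2 -0.35, Wdr43 -0.33, Gtf3c4 -0.25, Cops8 -0.36, Tecr -0.31, Psmd1 -0.31, Pdhb -0.35, Sdc4 -0.24 and Nars -0.38. Aldh3a2 at 4 weeks turned to 0.11 with a running median and 0.085 with neighbours removed. As deposited, the constant hypoxia arrays have medians below those of the others. The cause of the other changes was not tested.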
